A study of Mus musculus and Rattus norvegicus with 11 samples.

Results

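Metalloproteinases and their inhibitors were followed as 8 genes in single cells of peripheral nerve: the matrix metalloproteinases Mmp2, Mmp3 and Mmp14, the ADAMTS proteases Adamts1 and Adamts5, and the tissue inhibitors of metalloproteinases Timp1, Timp2 and Timp3. The genes were taken by symbol, and all 8 were present among 31053 mouse genes and 32883 rat genes. Droplet 3' sequencing counted unique molecular identifiers (UMIs) per gene and cell barcode, and cells carry the names that the submitters deposited. The groups were 3 libraries labelled ICAM-1-/-NOD, 3 NOD control libraries, 3 C57BL/6 libraries and 2 libraries of naive Lewis rats. NOD is an inbred mouse strain prone to autoimmunity, and the submitters use NOD mice to study chronic autoimmune neuritis and C57BL/6 mice and Lewis rats as undiseased animals. The libraries labelled ICAM-1-/-NOD share the NOD background with their controls. Icam1 encodes an adhesion molecule that leukocyte integrins bind. For mouse, brachial plexus and sciatic nerve cells were freed with trypsin, collagenase, hyaluronidase and pronase and sorted as live cells. Rat cells came from sciatic nerve by collagenase, dispase and DNase and were not sorted. No animal age, sex or number per library is given in the labels.

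Extracellular matrix turnover rests on secreted and membrane-bound zinc proteases that are made as inactive precursors and on TIMP proteins that block their active sites. Mmp14 sits in the cell membrane, where it can activate pro-Mmp2 in a complex that contains Timp2, so Timp2 can both assist and inhibit. In nerve these proteases act on the basal lamina and connective tissue sheaths and are studied for their part in leukocyte entry and in repair after injury.

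The genes lie apart in the mouse genome except for Adamts1 and Adamts5, which are neighbours on the minus strand of chromosome 16 at chr16:85793827-85803113 and chr16:85856173-85901828 (GRCm38, GENCODE annotation). Mmp2 is at chr8:92827291-92853420, Mmp3 at chr9:7445822-7455975 and Mmp14 at chr14:54431612-54445364, all on the plus strand. Timp1 is at chrX:20870166-20874735 and lies within Syn1, a gene of the opposite strand, with no shared exon. Timp3 at chr10:86300372-86349506 lies within Syn3, also of the opposite strand, and exons of the 2 genes overlap. Timp2 is on the minus strand at chr11:118301069-118355740, with Cep295nl inside it on the same strand and no shared exon. Whether the submitters counted by strand is not given in the sources used here. Syn1, Syn3 and Cep295nl passed the filter on low counts in none of the tests below.

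Promoter windows of 300 bases, from RefSeq (GRCm38.p6), were found for 6 of the 8 genes, and 3 are printed because their genes gave the calls in nerve and myeloid cells described below. The windows run from 250 bases before to 50 bases after the start annotated in RefSeq, in the direction of transcription. For Timp2 this start differs from the GENCODE start at 118355740, and the whole window lies inside the gene span given above. Capitals mark matches to TGANTCA (the AP-1 element, its own reverse complement apart from the middle base), TATAAA (the TATA box) and GGGCGG (the GC box), searched on both strands and not overlapping each other in these 3 windows. Their positions in mouse are chr9:7445572-7445871 (plus strand) for Mmp3, chrX:20869916-20870215 (plus strand) for Timp1 and chr11:118355362-118355661 (minus strand) for Timp2.
Mmp3: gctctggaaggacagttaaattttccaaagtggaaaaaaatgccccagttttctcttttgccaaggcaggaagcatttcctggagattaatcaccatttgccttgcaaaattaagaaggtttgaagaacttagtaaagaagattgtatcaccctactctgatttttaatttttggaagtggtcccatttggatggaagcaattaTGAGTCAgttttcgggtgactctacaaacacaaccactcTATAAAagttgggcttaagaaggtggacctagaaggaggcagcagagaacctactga
Timp1: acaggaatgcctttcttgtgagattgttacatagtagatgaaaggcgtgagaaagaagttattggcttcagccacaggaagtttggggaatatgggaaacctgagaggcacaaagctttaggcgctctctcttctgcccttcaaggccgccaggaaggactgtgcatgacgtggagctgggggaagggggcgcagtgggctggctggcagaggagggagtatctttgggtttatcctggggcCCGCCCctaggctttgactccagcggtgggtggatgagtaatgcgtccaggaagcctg
Timp2: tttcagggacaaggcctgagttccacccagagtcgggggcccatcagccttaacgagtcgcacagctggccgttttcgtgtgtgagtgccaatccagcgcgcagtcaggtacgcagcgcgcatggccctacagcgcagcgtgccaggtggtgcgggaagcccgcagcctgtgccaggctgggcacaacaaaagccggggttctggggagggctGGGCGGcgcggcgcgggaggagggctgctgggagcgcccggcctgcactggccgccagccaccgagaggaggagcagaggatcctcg
The Mmp3 window had 40% G or C and was the only window of the 6 with TGANTCA, 46 bases before the annotated start, while 7.81% of 32851 windows in the table hold it. It also held TATAAA, as did Adamts1, against 13.6% of all windows. The Timp1 and Timp2 windows had 55% and 68.7% G or C and held GGGCGG, as did those of Mmp14, Adamts1 and Timp3, against 35.7% of all windows. These matches are descriptions of letters and not of bound sites.

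The mouse libraries held between 400 and 3800 barcodes with medians of 591 to 1530 UMIs per barcode, and the rat libraries 6500 and 6000 barcodes with medians of 2647 and 2670 UMIs. Cell names covered 15672 of 16050 mouse barcodes and 12360 of 12500 rat barcodes. No pair of libraries shared more than 15 cell barcode sequences in mouse or 59 in rat. Libraries numbered 1 of NOD control and C57BL/6 stood apart with 0.611% and 0.972% mitochondrial UMIs, against 1.94% to 3.40% elsewhere. Icam1 was counted at 246, 259.4 and 254.4 counts per 1000000 UMIs (CPM) in the libraries labelled ICAM-1-/-NOD and at 94.5, 44.1 and 55.0 CPM in NOD control libraries 1, 2-1 and 2-2. A 3' tag does not check a deletion elsewhere in the gene, so the genotype label could not be tested here and is written as a label throughout. Control libraries 2-1 and 2-2 share a number and were summed as NOD control 2. The labels do not say that libraries came from separate animals, so every p-value measures only the spread between these libraries, which may be technical. The deposited name nmSC went with fibroblast markers: a list of 6 pan-fibroblast genes such as Dcn and Col1a1 summed to between 45072 and 92687 CPM in mouse nmSC samples, against 79.3 to 338.5 CPM for 5 Schwann cell genes such as Sox10 and Mbp. In rat nmSC these lists were at 41551 to 46949 CPM and at 72.5 to 79.8 CPM. In mouse mySC the Schwann list reached 4594 to 8477 CPM. Deposited names are therefore used unexpanded.

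In undiseased C57BL/6 nerve each of the 8 genes had its highest mean over libraries in a stromal or mural type. Types with too few libraries for a mean, such as the lymphatic cells named lymph, are outside this ranking. Schwann and endothelial cells also held Timp3, and no gene averaged over 32.3 CPM in lymphocytes. Levels are CPM within a cell type and library, for types with at least 20 cells in the library. They are 3' tag counts and are compared between cell types within a gene, not between genes.

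Mmp2, the gelatinase that cuts denatured collagen and basal lamina collagen, was highest in nmSC, with 1162, 1092 and 1212 CPM in libraries 1, 3 and 4. The fibro cells of the same libraries had 621.1, 656.2 and 526 CPM. The ranges of nmSC and fibro did not overlap, and each stood above every other type, of which T cells came next at 32.3 ± 32.2 CPM (SD, n = 3). Together nmSC and fibro held 50.4% and 47.9% of the 4372 Mmp2 UMIs in named C57BL/6 cells, while they made up 27.5% and 29.8% of the cells. A Mmp2 UMI was present in 70.3% of nmSC cells and 61.1% of fibro cells. In T cells, with a median of 912 UMIs against 1306 in nmSC, the share was 2.40%.

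Mmp3 (stromelysin 1), which cuts proteoglycans and activates other metalloproteinase precursors, was nearly restricted to fibro cells in C57BL/6. It reached 150.4, 331 and 175.3 CPM in fibro cells of libraries 1, 3 and 4, and the next type, B cells, had 4.92 ± 8.53 CPM from 1 UMI. Fibro cells held 97.9% of its 1005 UMIs. The transcripts were concentrated in few cells: 20.6% of 1551 fibro cells had a UMI, the richest cell held 29, and the 10% of cells with the most held 80.3% of them. For Timp2 in the same cell type, the 10% of cells with the most held 33.1% of its UMIs. In nmSC, 0.350% of cells had a Mmp3 UMI, at a median of 1306 UMIs per cell against 1987 in fibro cells.

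Mmp14, the membrane-type protease, was shared by the stromal and Schwann cell types. Its levels were 123 ± 16.7 CPM in nmSC and 123 ± 12 CPM in fibro cells (SD, n = 3 each) and 111 ± 70.5 CPM in mySC (SD, n = 2), with overlapping ranges. These 3 types stood apart from smooth muscle cells named vSMC, which followed at 19.5 ± 6.41 CPM (SD, n = 2). B cells, T cells and the macrophages named MP had 0 Mmp14 UMIs, which allows at most 23.4, 8.79 and 6.00 CPM when 3 counts are taken as the limit.

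Adamts1 and Adamts5, proteases that cut aggrecan and versican, differed in their cell types although the genes are neighbours. Adamts1 was highest in pericytes named PC, with 156.1 and 255.5 CPM in libraries 1 and 3, and in vSMC, with 59.7 and 275.9 CPM. The ranges of PC, vSMC and fibro cells (73.7 ± 26.0 CPM, SD, n = 3) overlapped from one to the next in that order. Adamts5 was highest in fibro cells at 105.8, 130.1 and 211.6 CPM in libraries 1, 3 and 4 and in mySC at 161.2 and 90.5 CPM, and PC had a single UMI in 229 cells. Endothelial cells named EC1, macrophages, T cells and B cells had 0 Adamts5 UMIs, at limits of 4.94, 6.00, 8.79 and 23.4 CPM. In nmSC, Adamts1 was uneven between libraries, with 7.55, 85.4 and 11.3 CPM.

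Among the inhibitors, Timp2 was highest in fibro cells and Timp3 in pericytes, of the types with a mean over libraries. Timp2 had 1496, 808.7 and 852.5 CPM in fibro cells of libraries 1, 3 and 4, above the range of nmSC at 294.4, 241.6 and 203.8 CPM. From nmSC through mySC, PC, macrophages, EC1 and vSMC the ranges of Timp2 overlapped from one to the next, at means from 247 down to 102 CPM. The nmSC range lay above those of PC, macrophages and vSMC. T cells stood apart at 23.2 ± 7.28 CPM (SD, n = 3), and B cells had 0 UMIs, a limit of 23.4 CPM.

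Timp3, the inhibitor that binds to the matrix and also blocks several ADAM and ADAMTS proteases, reached 1066 and 1979 CPM in PC of libraries 1 and 3. It was above the ranges of mySC at 483.6 and 808.3 CPM and of vSMC at 447.8 and 764.6 CPM. EC1, fibro cells and nmSC followed at 392 ± 63.5, 381 ± 58.2 and 219 ± 55.6 CPM (SD, n = 3 each). A Timp3 UMI was found in 66.4% of PC cells and 55.4% of vSMC cells, against 1.20% of T cells, with medians of 1017, 1548 and 912 UMIs per cell. The 25 lymphatic cells named lymph had 1817 CPM from 62 UMIs (95% exact Poisson interval 1393 to 2330), and 21 of these cells were in library 3. Poisson intervals cover counting error only.

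Timp1, a secreted inhibitor that stromal cells induce in inflammation, had 44.6, 90.8 and 72.5 CPM in fibro cells. The range of nmSC (33.5 ± 23.4 CPM, SD, n = 3) overlapped those of fibro cells and mySC (26.6 ± 19.3 CPM, SD, n = 2). The ranges of fibro cells and mySC did not overlap. Fibro cells held 82.8% of the 332 Timp1 UMIs.

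**Figure D1:**
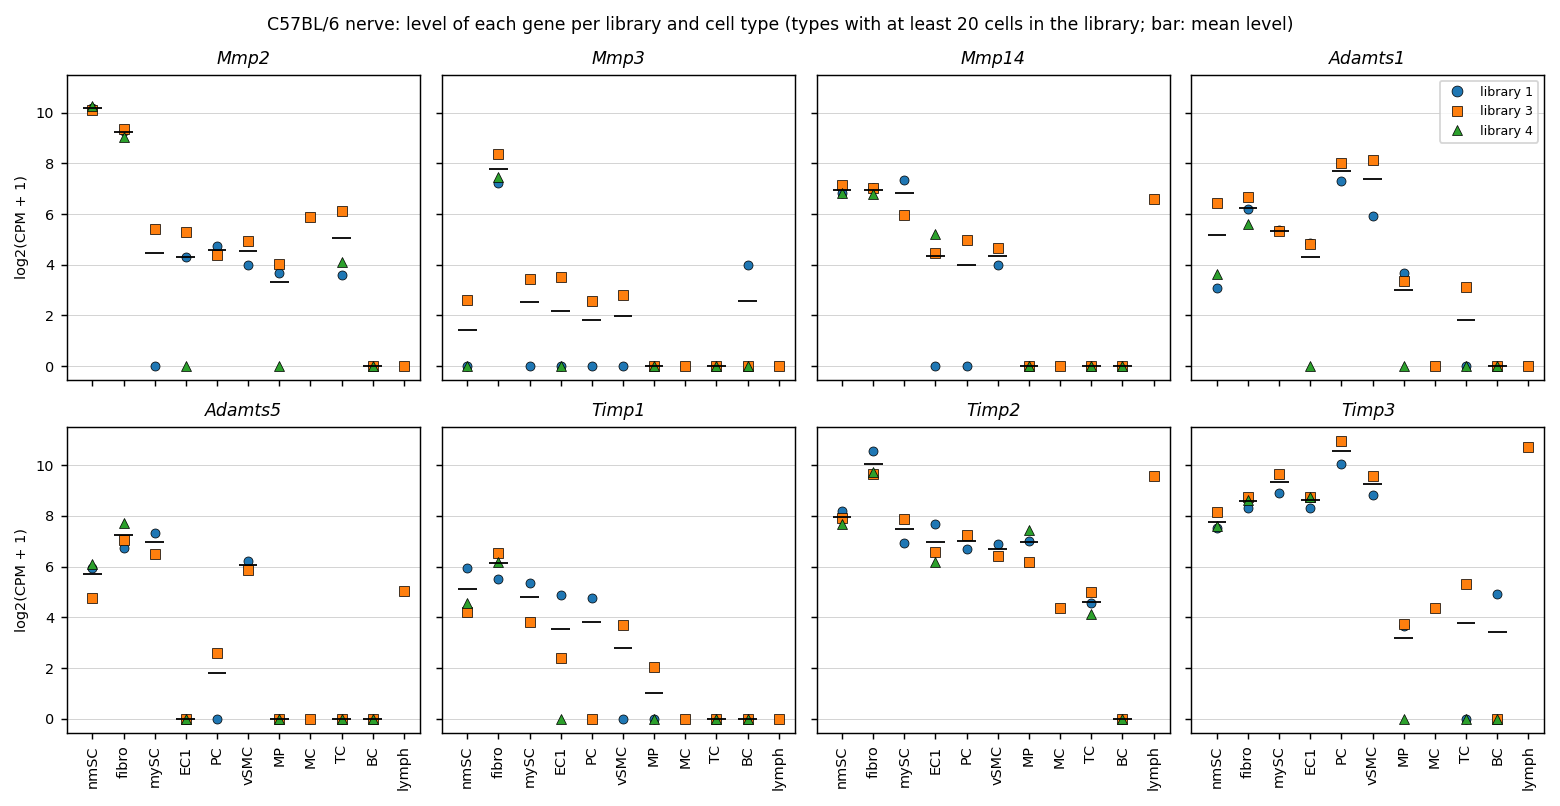
Level of each gene as log2(CPM + 1) for each C57BL/6 library (points) and their mean level (bars) in cell types with at least 20 cells in the library. Mmp3 stands high in fibro cells alone among these types, Mmp2 in nmSC and fibro cells, and Timp3 is high in PC and lymph and low in leukocytes.

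Across the 12 C57BL/6 cell types the genes did not share 1 pattern. The pair with the most alike profiles on the log2(CPM + 1) scale was Mmp14 and Adamts5 (Pearson r = 0.86), and the least alike was Mmp2 and Timp3 (r = 0.11). Among 7252 genes, the profile most like that of Mmp2 was Scara5 (r = 0.95), that of Mmp3 was Cilp (r = 0.88), and that of Timp1 was P4ha2 (r = 0.98). For Timp2 it was Serpinb6a (r = 0.95), for Timp3 Cc2d2a (r = 0.96), for Adamts1 Dmpk (r = 0.98), for Adamts5 Tars (r = 0.97) and for Mmp14 Rcn2 (r = 0.98). These are descriptions over 12 pooled types that share libraries and differ in depth.

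In Lewis rat nerve Timp1 was found in every cell type, most in fibro cells, and Timp3 was highest in endothelial cells. Timp1 had 1315 and 1340 CPM in fibro cells of libraries 1 and 2 and 821.6 and 788.4 CPM in nmSC. Endothelial cells were close to nmSC, with 759.3 and 795.9 CPM in those named microvasculatory EC and 736.3 and 755 CPM in vascular EC. Myeloid cells named PF4 MC and MHC II APC had 359.8 and 348.1 CPM and 374.3 and 360.2 CPM.

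Mast cells, at 37 in all, had 74.6 CPM (95% exact Poisson interval 30.0 to 154). In rat lymphocytes the levels were 120.2 and 181.1 CPM of Timp1 in B cells and 97.2 and 143.7 CPM in T cells. All lay below fibro cells, and all but the 181.1 CPM lay within the interval of the mast cell value. Set against fibro cells of the same library, the Timp1 level was 9.15% and 13.5% in B cells and 7.40% and 10.7% in T cells, and that of Mmp2 was 4.36% and 17.8% in B cells and 6.86% and 12.3% in T cells. In PF4 MC the Timp1 level was 27.4% and 26.0% of that in fibro cells, and in MHC II APC 28.5% and 26.9%, whereas Mmp2 was at 10.7% and 12.6% and at 6.51% and 13.0%. The pan-fibroblast list summed to between 2555 and 3959 CPM in rat lymphocytes, against 44224 to 46717 CPM in fibro cells. The part of free stromal RNA in the lymphocyte values was not tested.

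Timp3 in the rat was highest in vascular EC, at 244.1 and 213.6 CPM, and did not overlap with the next type, microvasculatory EC, at 82.0 and 115.6 CPM. In vascular EC the lymphatic endothelial list summed to between 1687 and 1873 CPM and the endothelial list to between 1364 and 1466 CPM, against 35.4 to 40.2 CPM and 844 to 972 CPM in microvasculatory EC, and the part of lymphatic cells in the Timp3 level was not tested. Fibro cells had 46.0 and 35.5 CPM and nmSC 16.2 and 13.9 CPM. Timp2 was again highest in fibro cells, at 908.2 and 1197 CPM, followed without overlap by nmSC at 293.7 and 456.8 CPM.

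Of the rat proteases, Mmp2 was higher in fibro cells (804.6 and 781.1 CPM) than in nmSC (509.2 and 505 CPM), the reverse of the order in C57BL/6. Mmp14 had 109.5 and 102.8 CPM in fibro cells and 73.6 and 75.9 CPM in nmSC. Adamts1 followed fibro cells (88.3 and 94.2 CPM) with microvasculatory EC (77.2 and 85.7 CPM). Mmp3 and Adamts5 were scarce in rat fibro cells, at 9.09 and 7.41 CPM and at 4.25 and 5.52 CPM. Mmp3 came from 27 of 3490 fibro cells, or 0.774%, which held 109 UMIs with 14 in the richest. Rat and mouse levels rest on different tissue preparation, depth and genome builds and were not tested against each other.

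**Figure D2:**
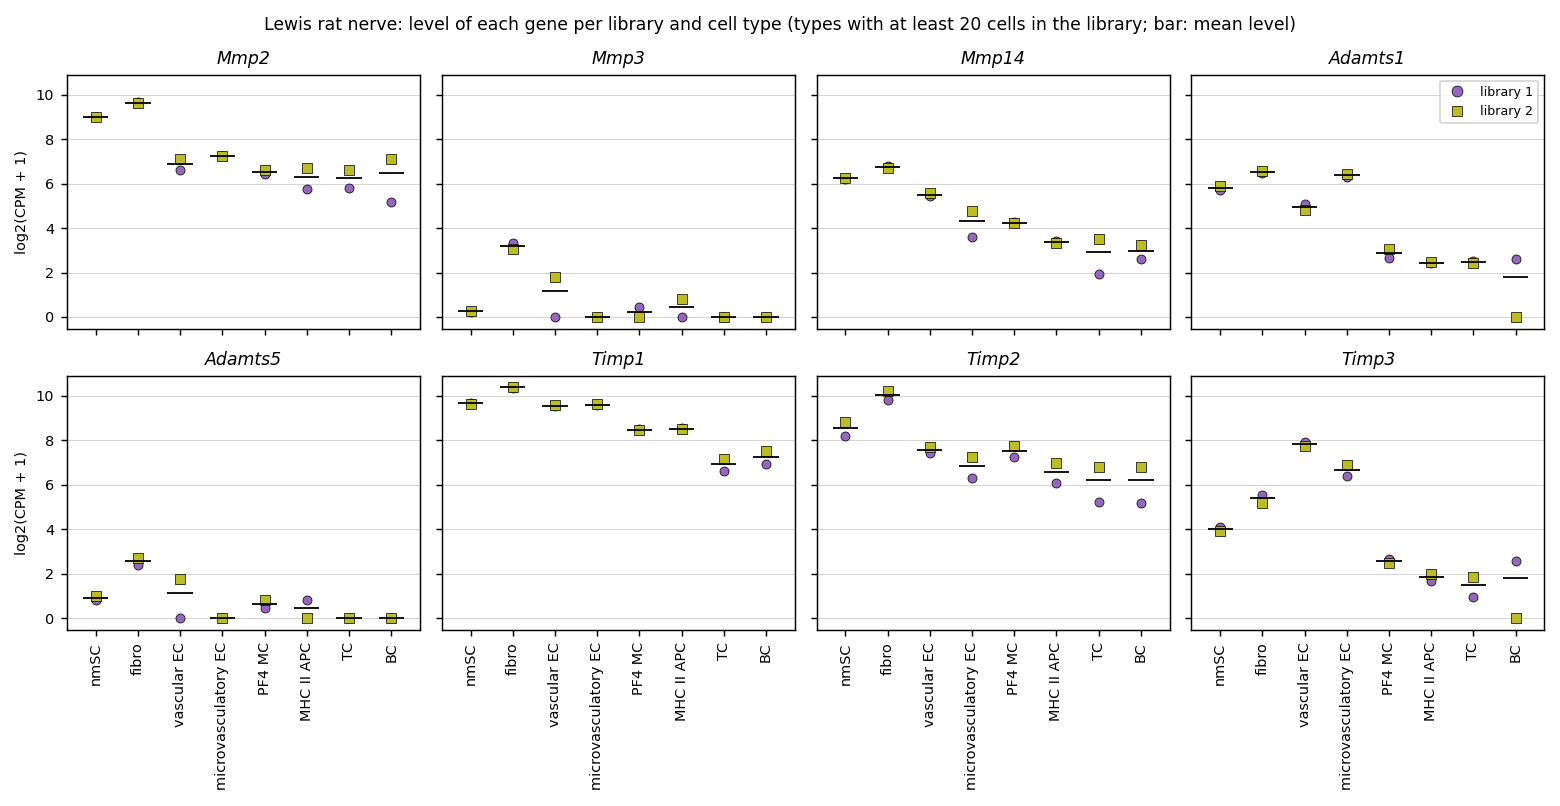
Level of each gene as log2(CPM + 1) in both Lewis rat libraries (points) and their mean level (bars) by cell type. Types with under 20 cells in a library are not shown. Timp1 is at 97.2 CPM or more in each library of every type shown, and Timp3 is highest in vascular EC.

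Whether the genes differ with strain was asked of NOD control 1 and 2 against C57BL/6 libraries 1, 3 and 4, with UMIs summed per sample and cell set and tested with edgeR's quasi-likelihood test at a Benjamini-Hochberg adjusted p of 0.05 over all genes of the set. In fibro cells all 8 genes were tested and 1 passed, where 1.82% of 4780 genes did and 0.879% did with a lower level. Mmp3 was that gene and was lower in NOD control. Its levels were 41.7 and 62.9 CPM in NOD control 1 and 2, against 150.4, 331 and 175.3 CPM in C57BL/6 libraries 1, 3 and 4. Both NOD control samples lay below all 3 C57BL/6 samples. The strain difference in Mmp3 was -2.26 ± 0.40 on the log2 scale (SE) with an adjusted p of 0.00563 (edgeR). All 11 alternatives kept the call, with adjusted p between 1.21e-06 and 0.0400 and log2 fold changes between -2.65 and -1.83. Leaving out C57BL/6 library 3, the highest sample, gave -1.83.

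In the same fibro cells the summed level of 18 immediate early genes, which include Fos and Jun of the AP-1 factor, was 9957 and 4271 CPM in NOD control and 3618, 7062 and 2854 CPM in C57BL/6, so the groups overlapped. The epineurial fibroblast list (Pi16, Sfrp2, Clec3b, Ly6c1 and Dpt) also overlapped, at 13947 and 9874 CPM in NOD control and 9667, 9288 and 10242 CPM in C57BL/6. The part of either list in the Mmp3 difference was not tested. In C57BL/6 the 10% of fibro cells with the most Mmp3 held 80.3% of its UMIs. A change in how many such cells were sampled and a change of Mmp3 within cells cannot be told apart here. Neither the collagen and matrix list nor the other metalloproteinases had a member past the threshold in fibro cells (0 of 23 and 0 of 2 tested). Of the immediate early genes 1 of 15 passed, Jund, at a log2 fold change of 1.99 ± 0.35 (SE, adjusted p = 0.00468, edgeR), and Jund was also called higher in nmSC, EC and lymphoid cells.

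The other 7 genes did not pass in fibro cells. Adamts1 had 49.3 and 16.4 CPM in NOD control and 72.4, 100.3 and 48.4 CPM in C57BL/6, with overlapping groups and a log2 fold change of -1.55 ± 0.48 (SE, adjusted p = 0.162, edgeR). It passed without NOD control 1 and without the filter on low counts, at an adjusted p of 0.0161 in the lower of these. Timp2 had 2175 and 1460 CPM in NOD control against 1496, 808.7 and 852.5 CPM in C57BL/6 (log2 fold change 0.53 ± 0.46, SE). Timp3 had 299.3 and 281.6 CPM in NOD control, below 317.5, 432.1 and 393 CPM in C57BL/6, with a log2 fold change of -0.58 ± 0.30 (SE, adjusted p = 0.556, edgeR).

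**Figure D3:**
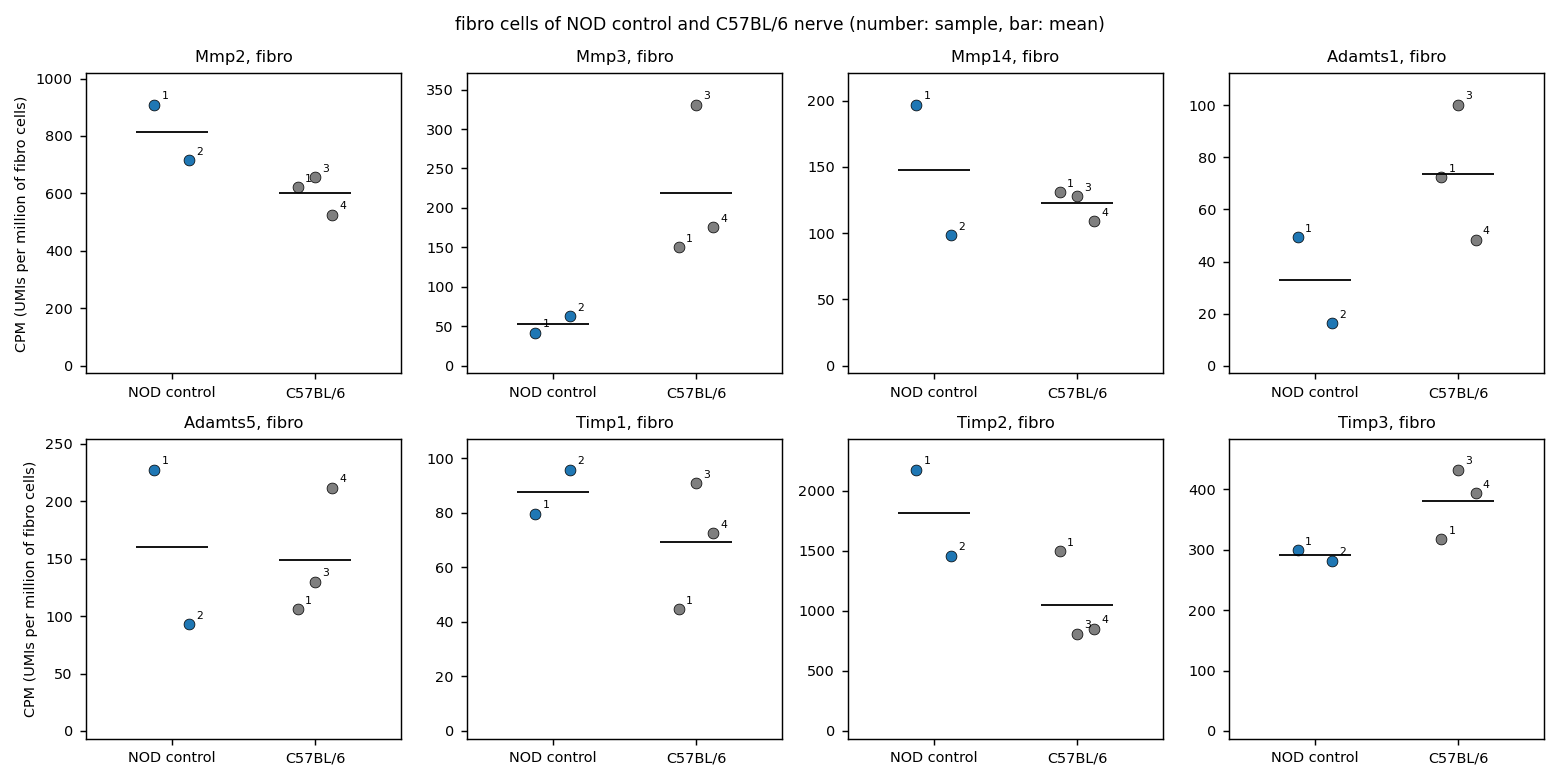
CPM of the 8 genes in fibro cells of NOD control 1 and 2 (left) and C57BL/6 libraries 1, 3 and 4 (right), with bars at the group means. For Mmp3 both NOD control samples, at 41.7 and 62.9 CPM, lie below the C57BL/6 samples.

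In nmSC 7 of the 8 genes were tested between strains and 0 passed, where 2.28% of 7691 genes did. Mmp3 had 0 UMIs in NOD control nmSC and 9 in C57BL/6, all in 1 library. Timp2 came nearest, with 662 and 544.6 CPM in NOD control, above 294.4, 241.6 and 203.8 CPM in C57BL/6. The Timp2 difference was 1.14 ± 0.32 on the log2 scale (SE, adjusted p = 0.0729, edgeR), and it passed in 2 of 11 alternatives, with libraries 2-1 and 2-2 kept separate and without C57BL/6 library 1. Mmp2 had 1824 and 1293 CPM in NOD control, also above 1162, 1092 and 1212 CPM in C57BL/6, with a log2 fold change of 0.31 ± 0.36 (SE).

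In endothelial cells Timp2 and Timp3 were the only genes tested, and neither passed, where 1.96% of 2091 genes did. Timp3 had 391.9 and 432.2 CPM in NOD control and 318.5, 422.6 and 433.6 CPM in C57BL/6. NOD control 1 had 35 such cells, in which the lymphatic endothelial list summed to 10728 CPM, against 858.6 CPM in NOD control 2 and at most 27.5 CPM in C57BL/6. Plat, the tissue plasminogen activator, was the 1 gene of 2 tested in the activation and plasminogen list that passed in endothelial cells, at -3.46 ± 0.67 on the log2 scale (SE, adjusted p = 0.0205, edgeR).

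In myeloid cells (MC and pDC of NOD control, MP and MC of C57BL/6) Timp2 alone was tested and did not pass, where 1.3% of 1687 genes did. It had 257.9 and 312.8 CPM in NOD control, above 111, 64.1 and 142 CPM in C57BL/6, with a log2 fold change of 1.37 ± 0.43 (SE, adjusted p = 0.256, edgeR). In lymphoid cells none of the 8 genes passed the filter, and 1.79% of 2343 genes were called. The cell names of the strains differ, so the myeloid and lymphoid sets need not hold the same cells.

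The second comparison set the libraries labelled ICAM-1-/-NOD 1, 2 and 3 against NOD control 1 and 2, the same control samples as above, so the values of both comparisons are not independent. Most cells of the labelled libraries were leukocytes, and nmSC numbered 187 cells in them against 2203 in NOD control. Fibro cells numbered 20 in all labelled libraries, so their levels were not tested.

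In mySC, the inhibitor Timp1 was higher in the libraries labelled ICAM-1-/-NOD. It was 1 of 4 genes tested and the 1 that passed, where 11.4% of 1711 genes did and 5.61% did with a higher level. It met the filter on low counts only through labelled libraries 2 and 3, so being tested already depended on its level there. Its levels were 75.4, 205.6 and 272.7 CPM in labelled libraries 1, 2 and 3, against 0 and 19.8 CPM in NOD control 1 and 2. The groups did not overlap, although labelled library 1 was low among the 3. Timp1 was higher by 2.91 ± 0.71 on the log2 scale (SE, adjusted p = 0.00759, edgeR), and pooled over samples 36 UMIs against 11 gave a ratio of 9.29 (95% exact interval 4.63 to 20.2, counting error only). NOD control 1 had only 20 mySC cells, in which 1 UMI equals 76.4 CPM. Its 0 therefore does not exclude levels like those of labelled libraries 1 and 2. Without NOD control 2 the adjusted p was 0.318 (log2 fold change 6.30), without labelled library 2 or 3, or with control libraries 2-1 and 2-2 kept separate, Timp1 did not pass the filter on low counts, and DESeq2 gave it no adjusted p.

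Within the labelled libraries a Timp1 UMI was found in 16.9% of 124 mySC cells (median 1236 UMIs per cell), against 3.74% of nmSC cells (median 1371) and 0.196% of CD4 cells (median 855). Endothelial cells of these libraries had 0 Timp1 UMIs, a limit of 33.2 CPM. In C57BL/6 mySC the level was 40.3 and 12.9 CPM in libraries 1 and 3. Several marker lists moved beside Timp1 in mySC. The Schwann list summed to 5809, 5779 and 4909 CPM in the labelled libraries against 8477 and 7060 CPM in NOD control. The T cell list summed to 201.2, 434 and 324.7 CPM in the labelled libraries against 0 and 37.8 CPM in NOD control, and the plasmacytoid dendritic list to 930.4, 708.1 and 857.1 CPM against 0 and 153 CPM. The values of NOD control 1 rest on 20 cells, and the part of these lists in the Timp1 difference was not tested.

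The other genes tested in mySC did not pass. Mmp14 had 150.9, 137.1 and 52.0 CPM in the labelled libraries and 76.4 and 43.2 CPM in NOD control, with overlapping groups. Like Timp1, it met the filter on low counts only through labelled libraries, here 1 and 2. Timp2 had 402.3, 342.6 and 259.7 CPM in the labelled libraries, below 458.2 and 433.8 CPM in NOD control (log2 fold change -0.61 ± 0.32, SE, adjusted p = 0.262, edgeR). Timp3 overlapped, at 452.6, 753.8 and 545.4 CPM in the labelled libraries and 534.6 and 637.2 CPM in NOD control. Of the collagen and matrix list, 2 of 12 tested genes were higher and 3 lower, among them the proteoglycans Lum at -3.30 ± 0.47 and Dcn at -2.38 ± 0.50 on the log2 scale (SE, edgeR). RLE size factors kept these counts. DESeq2 and the replicate block each gave 0 higher and 1 lower. Without labelled library 3 it was 0 and 0 of 8 tested, and without labelled library 2 it was 0 and 2. Lum and Dcn are also in the pan-fibroblast list, and the part of free stromal RNA was not tested.

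In nmSC, 5 of the 8 genes were tested and 0 passed, where 3.9% of 2101 genes did. Mmp2 had 1195, 1003 and 849.7 CPM in the libraries labelled ICAM-1-/-NOD, below 1824 and 1293 CPM in NOD control, with a log2 fold change of -0.63 ± 0.22 (SE, adjusted p = 0.132, edgeR). Timp2 had 374.8, 406.1 and 310.2 CPM in the labelled libraries, below 662 and 544.6 CPM in NOD control (-0.74 ± 0.20, SE, adjusted p = 0.0664, edgeR). Timp3 pointed the other way, with 496.3, 414.4 and 404.6 CPM in the labelled libraries, above 321 and 232 CPM in NOD control (0.65 ± 0.23, SE, adjusted p = 0.135, edgeR).

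Mmp14 had 243.1, 232 and 256.3 CPM in labelled nmSC, above 209.4 and 151.3 CPM in NOD control (0.41 ± 0.25, SE, adjusted p = 0.394, edgeR). Adamts1 overlapped, at 131.7, 91.2 and 67.4 CPM in the labelled libraries and 79.0 and 61.7 CPM in NOD control. It met the filter on low counts only through labelled libraries 1 and 2. Mmp2 and Timp2 passed without the filter on low counts and without NOD control 2, and Timp3 passed without NOD control 1. Timp1 and Adamts5 did not pass the filter in nmSC, and Mmp3 had 0 UMIs in both groups.

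In nmSC, where none of the 8 genes passed, 1.52% of all genes tested were called lower in the libraries labelled ICAM-1-/-NOD. Of 20 tested genes in the collagen and matrix list, 8 were lower and 0 higher, with a median log2 fold change of -0.87, against 0.02 over all genes tested. They included Col6a1, a beaded-filament collagen, at -1.23 ± 0.19 (SE, adjusted p = 0.00574, edgeR), Hspg2, which encodes the basal lamina proteoglycan perlecan, at -1.57 ± 0.25 (adjusted p = 0.00599, edgeR) and Col4a1 of basal lamina at -1.77 ± 0.34 (adjusted p = 0.0169, edgeR). Serpine2, an inhibitor of thrombin and plasminogen activators, was the 1 of 4 tested genes of the activation and plasminogen list that passed, at 0.93 ± 0.23 (SE, adjusted p = 0.0416, edgeR). Of the immediate early genes 2 of 13 were higher, Junb at 1.22 ± 0.21 and Jund at 0.83 ± 0.21 (SE, edgeR). These calls rest on having all 3 labelled libraries in the fit. The count of lower matrix genes was 0 without labelled library 1, 0 without library 2 and 1 without library 3, and 0 with the labelled libraries summed as 1 sample, while leaving out NOD control 1 gave 15 and leaving out NOD control 2 gave 12. Of the 6 genes named, Hspg2 without labelled library 3 was the 1 that still passed when a labelled library was left out (adjusted p = 0.0485, edgeR), and all 6 kept their direction in these fits. In nmSC the T cell list summed to 192.4, 306.6 and 269.7 CPM in the labelled libraries against 5.02 and 52.8 CPM in NOD control, and its part in these differences was not tested.

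The 20 fibro cells of the labelled libraries gave 45 Timp2, 18 Mmp2, 14 Timp3, 13 Adamts5 and 6 Mmp3 UMIs. The pooled Mmp3 level of 163 CPM (95% exact Poisson interval 59.8 to 355) came from 2 cells, and no test was made. For endothelial cells Timp3 alone was tested and did not pass, where 2.6% of 538 genes did, with 372, 631.4 and 400.7 CPM in the labelled libraries and 391.9 and 432.2 CPM in NOD control. Mmp2 had 0 UMIs in labelled endothelial cells and 15 in those of NOD control, all of NOD control 2, so that NOD control 1 was also at 0. There the pan-fibroblast list was at 171.7, 197.3 and 300.6 CPM in the labelled libraries, against 5242 and 2488 CPM in NOD control.

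In myeloid cells (MC and pDC) Timp2 was lower in the libraries labelled ICAM-1-/-NOD. It was the 1 gene of 2 tested that passed, where 16.4% of 3514 genes did and 8.28% did with a lower level. The levels were 60.7, 44.4 and 104.5 CPM in labelled libraries 1, 2 and 3, against 257.9 and 312.8 CPM in NOD control 1 and 2, and the groups lay far apart. This was a log2 fold change of -2.23 ± 0.33 (SE, adjusted p = 0.000209, edgeR). All 13 alternatives kept the call, with adjusted p between 3.21e-09 and 0.0130. In MC cells alone, an alternative chosen after the data were seen, it was -2.31 (adjusted p = 0.000913, edgeR). The C57BL/6 levels given above, at 111, 64.1 and 142 CPM, lay below both NOD control samples.

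The macrophage list summed to 16785, 12112 and 15372 CPM in labelled myeloid cells, against 31301 and 25960 CPM in NOD control, and the plasmacytoid dendritic list to 1683, 1604 and 992.8 CPM against 493.5 and 400.8 CPM. A change in which myeloid cells were sampled and a change of Timp2 within them cannot be told apart from these sums. Of 3 tested genes of the collagen and matrix list, 2 were lower and 0 higher in labelled myeloid cells. They were Fn1 at -2.51 ± 0.28 and Lum, also in the pan-fibroblast list, at -2.40 ± 0.56 on the log2 scale (SE, edgeR). The part of free stromal RNA in the Timp2 difference was not tested.

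Mmp14 in myeloid cells had 13.0, 53.3 and 57.0 CPM in the labelled libraries, above 0 and 4.89 CPM in NOD control, and did not pass (log2 fold change 3.21 ± 1.17, SE, adjusted p = 0.0739, edgeR). The ratio of 27 UMIs to 1 was 11.9, with a 95% exact interval of 1.96 to 487. Mmp14 passed without labelled library 1 and without the filter on low counts. It met that filter only through labelled libraries 2 and 3, so being tested already depended on its level there. Without labelled library 2 or 3, or with control libraries 2-1 and 2-2 kept separate, Mmp14 did not meet the filter. A Mmp14 UMI was found in 9.48% of the 211 labelled MC cells, against 0.245% of CD4 cells and 0.155% of CD8 cells of the same libraries, at median depths of 2351, 855 and 1139 UMIs.

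Of the related lists in myeloid cells, the membrane-anchored protease Adam15 was lower at -2.47 ± 0.40 (SE, adjusted p = 0.000538, edgeR) as 1 of 3 tested membrane ADAM proteases. Lrp1, the receptor that clears protease and inhibitor complexes, was lower at -1.78 ± 0.47 (adjusted p = 0.0178, edgeR), and Furin, which activates pro-Mmp14, was lower at -2.12 ± 0.47 (adjusted p = 0.00569, edgeR). Plaur, the urokinase receptor, was higher at 0.89 ± 0.27 (adjusted p = 0.0346, edgeR). The immediate early genes were lower for 10 of 16 tested and higher for 0, with a median of -1.05, against 0.04 over all genes tested.

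**Figure D4:**
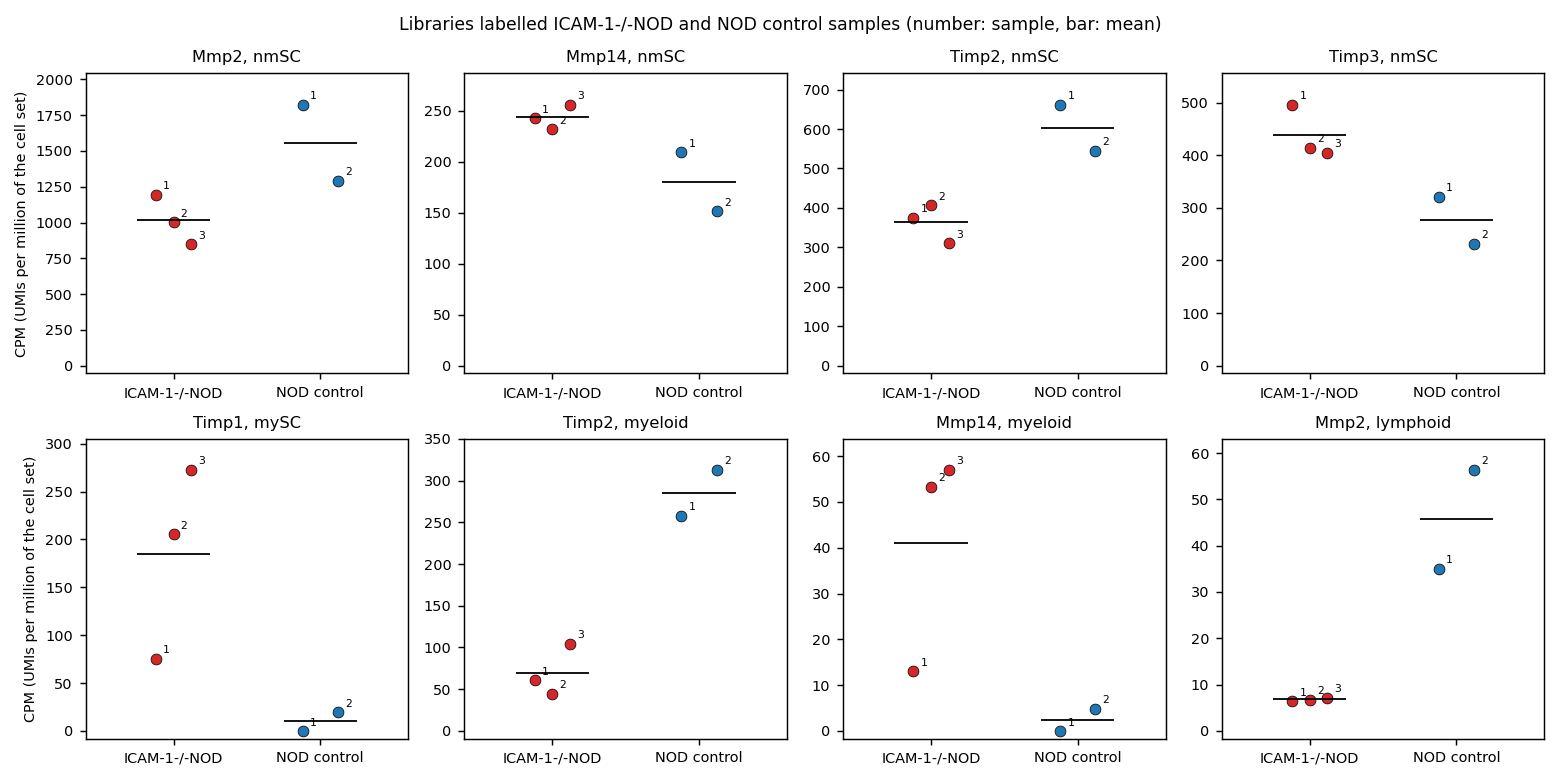
CPM of single samples for 8 pairs of gene and cell set, in libraries labelled ICAM-1-/-NOD 1, 2 and 3 (left) and NOD control 1 and 2 (right), with bars at the group means. Timp2 in myeloid cells is at 44.4 to 104.5 CPM in the labelled libraries and at 257.9 and 312.8 CPM in NOD control. Timp1 in mySC is at 75.4 CPM or more in the labelled libraries and at most 19.8 CPM in NOD control, where NOD control 1 held only 20 mySC cells.

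In lymphoid cells (BC, CD4 and CD8) the 3 genes that passed the filter were all called lower in the libraries labelled ICAM-1-/-NOD, where 19.4% of 8999 genes were called and 8.86% were called lower. Mmp2 had 6.41, 6.76 and 7.21 CPM in the labelled libraries, below 35.0 and 56.4 CPM in NOD control (log2 fold change -3.23 ± 0.37, SE, adjusted p = 6.23e-14, edgeR). Timp2 had 34.4, 36.2 and 40.0 CPM in the labelled libraries and 35.0 and 74.4 CPM in NOD control, so the groups overlapped (-1.21 ± 0.26, SE, adjusted p = 0.000108, edgeR). Timp3 also overlapped, with 6.99, 1.84 and 6.56 CPM in the labelled libraries and 0 and 22.3 CPM in NOD control (-2.27 ± 0.53, SE, adjusted p = 0.000369, edgeR). NOD control 1 had 49 lymphoid cells with 1 UMI each of Mmp2 and Timp2 and none of Timp3. Without NOD control 2, 0 of the 3 passed, and the log2 fold changes were -1.85 for Mmp2, 0.57 for Timp2 and 5.68 for Timp3. With DESeq2, which gave Timp3 no adjusted p, 1 of the 3 passed, Mmp2. With the labelled libraries summed as 1 sample none of 4 tested genes did, and in B cells alone none of the 8 genes passed the filter.

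Stromal genes moved with these members in lymphoid cells. The pan-fibroblast list summed to 403, 351.4 and 278.8 CPM in labelled lymphoid cells, against 1226 and 2002 CPM in NOD control, and 12 of 13 tested genes of the collagen and matrix list were lower, with Col1a1 at -4.55 ± 0.27 (SE, adjusted p = 2.60e-37, edgeR). Without NOD control 2, 2 of 9 tested genes of that list were lower. The lymphoid level of Mmp2 was 0.536%, 0.674% and 0.849% of the nmSC level of the same sample in the labelled libraries, and 1.92% and 4.36% in NOD control. For the pan-fibroblast list these percentages were 0.435%, 0.441% and 0.362% in the labelled libraries, and 1.55% and 3.07% in NOD control. The part of free stromal RNA in the lymphoid calls was not tested.

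Timp2 stood above those percentages in lymphoid cells, at 9.17%, 8.92% and 12.9% of the nmSC level in the labelled libraries and 5.29% and 13.7% in NOD control. Within the labelled libraries it was uneven among lymphocytes, with 63.3, 66.7 and 85.9 CPM in CD4 cells, 13.5, 24.8 and 7.80 CPM in CD8 cells and 16.3, 2.48 and 5.38 CPM in B cells. The CD4 range lay above those of CD8 and B cells, and 6.12% of CD4 cells had a Timp2 UMI, against 1.93% of CD8 cells and 0.903% of B cells, although CD4 cells had the lowest median depth at 855 UMIs. This comparison of cell types was not tested.

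**Figure D5:**
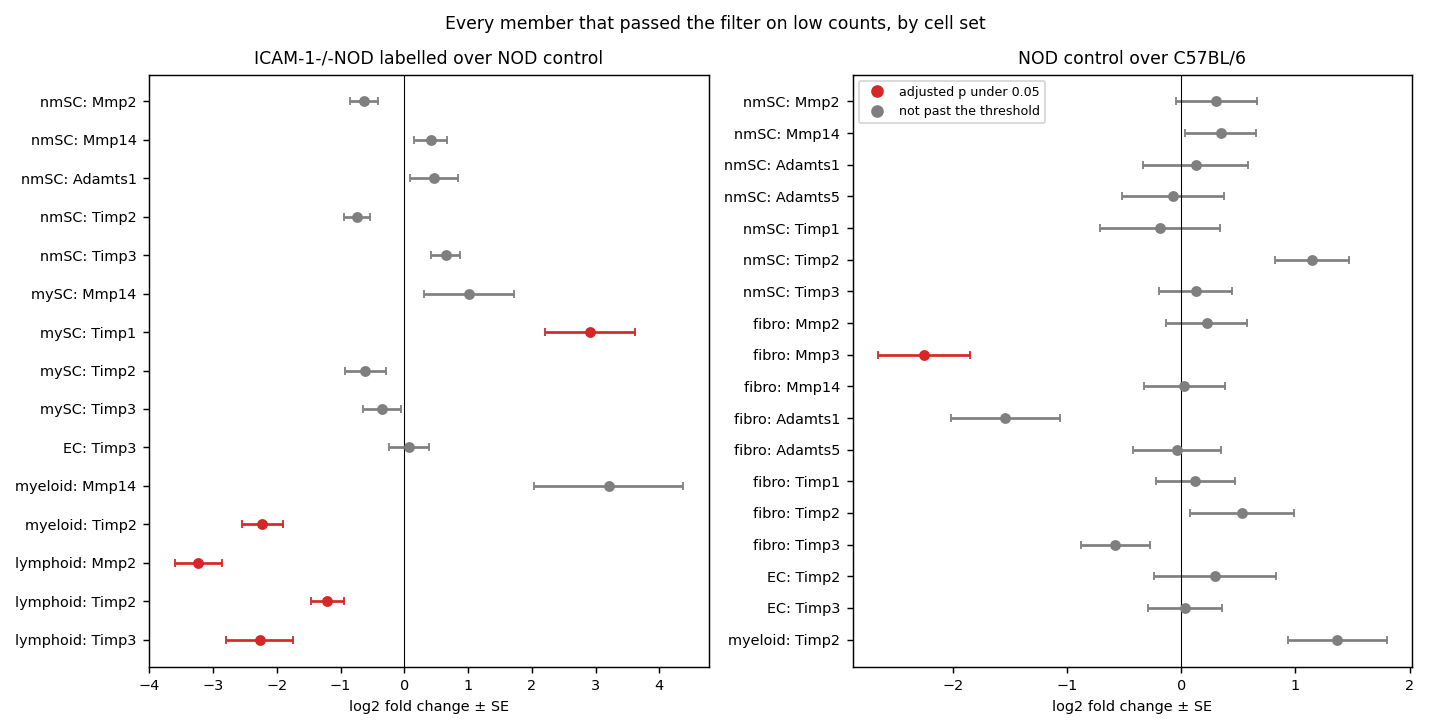
Log2 fold changes with standard errors for every gene that passed the filter on low counts, by cell set, for libraries labelled ICAM-1-/-NOD over NOD control (left panel) and NOD control over C57BL/6 (right panel). Red points passed an adjusted p of 0.05: Timp1 in mySC, Timp2 in myeloid cells and Mmp2, Timp2 and Timp3 in lymphoid cells on the left, and Mmp3 in fibro cells on the right.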

How the data were processed

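Single-cell libraries were made with 10x 3' version 2 chemistry from mouse and rat nerve, per the labels' protocols. What the authors deposited are raw UMI counts by gene and barcode, made with Cell Ranger 3.0.2 on mm10 and Rnor_6.0, per the submitters' processing notes. How cells were named, whether doublets or free RNA were removed, and which annotation release was counted is not given in the sources used here. The labels name 2 sequencers without saying which library ran on which. The group code deposited per mouse cell differed from the group of its library in 0 cells, and 0 columns of per-sample values were left unused.

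Sums of UMIs over the cells of a set in each sample were made in Python 3.11.15, scipy 1.17.1 and pandas 2.3.3, for sets with at least 20 cells in every sample. The test was the quasi-likelihood F test of edgeR 4.0.16 (R 4.3.3) without covariates, on genes kept by filterByExpr at a minimum of 10 counts and scaled by TMM, with Benjamini-Hochberg adjustment over all genes of the set and a threshold of 0.05. It was run on counts simulated at a fixed dispersion, which checks the code and not its error rate on samples of few cells. A standard error is the log2 fold change divided by the root of its F statistic. Alternatives were RLE size factors, DESeq2 1.42.0, no filter, control libraries 2-1 and 2-2 separate, Scrublet doublets left out (scanpy 1.11.5, 0.214% to 2.23% of barcodes per library), the libraries labelled ICAM-1-/-NOD summed as 1, replicate number as a block and each sample left out. Library 1 of either strain as a batch term, MC and MP cells alone, and B cells alone were chosen after seeing the data. The 8 genes and the lists were chosen with earlier results of these data known. A marker gene of the Schwann list is not reported here and was left out of its sums. Genes of a list are named when past the threshold, up to the 4 with the largest change, and the text gives a part of these. Genes alike in profile were ranked by Pearson r of log2(CPM + 1) over pooled cell types, among genes with at least 100 UMIs. Intervals are 95% exact Poisson or conditional binomial intervals and cover counting error only.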

Additional observations from a re-analysis of the deposited data

Results flagged for a closer look

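Several genes pointed in opposite directions in different cell sets of the same contrast, with every sample of one group beyond every sample of the other. The differences between sets were not tested, and the share of all genes with such groups was not counted. For libraries labelled ICAM-1-/-NOD minus NOD control, the mean CPM of Mmp14 differed by 63.4 in nmSC, 38.7 in myeloid cells and -51.9 in endothelial cells, the last from 0 and 3 UMIs. Timp1 differed by 175 CPM in mySC and -17.4 CPM in lymphoid cells, the second from 8 and 4 UMIs, and Timp3 by 162 CPM in nmSC and -22.6 CPM in myeloid cells, the second from 1 and 6 UMIs. For NOD control minus C57BL/6, Timp3 differed by 16.3 CPM in myeloid cells, from 6 and 6 UMIs, and -90.4 CPM in fibro cells.

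Barcodes without a cell type name entered no comparison, and several genes were above the level that 3 counts allow in them. In the 123 unnamed barcodes of the libraries labelled ICAM-1-/-NOD, Timp3 had 78.6 CPM, Timp2 36.3, Mmp2 30.2 and Timp1 24.2 CPM. The 53 unnamed barcodes of NOD control had 208 CPM of Timp2, 160 CPM of Mmp2 and 80.2 CPM of Timp3. In the 202 unnamed C57BL/6 barcodes, Timp3 had 519 CPM, Mmp2 372, Timp2 354, Timp1 225, Adamts1 112, Adamts5 95.1, Mmp14 64.8 and Mmp3 47.5 CPM. The Timp1 value came from 52 UMIs (95% exact Poisson interval 168 to 295 CPM), against 69.3 ± 23.3 CPM (SD, n = 3) in fibro cells, the highest of the types with a mean over libraries. In the 140 unnamed rat barcodes, Timp1 had 391 CPM, Timp2 341, Mmp2 264, Timp3 117, Mmp14 29.3 and Adamts1 18.6 CPM.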

How the results depend on the processing

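Mmp3 in fibro cells (strain) and Timp2 in myeloid cells (ICAM-1-/-NOD label) passed in every alternative run. In the label contrast the number of the 8 genes past the threshold in nmSC was 0, and 2 without the filter on low counts, with 0 to 2 when a sample was left out. In mySC it was 1, and 0 with DESeq2, which gave Timp1 no adjusted p, and 0 with control libraries 2-1 and 2-2 separate, with 0 to 2 when a sample was left out. In myeloid cells it was 1, and 2 without the filter, with 1 to 2 when a sample was left out. In lymphoid cells it was 3, and 1 with DESeq2, 0 with the labelled libraries summed as 1 sample and 0 in B cells alone, where none passed the filter, with 0 to 4 when a sample was left out. In the strain contrast nmSC gave 0, and 1 with libraries 2-1 and 2-2 separate, with 0 to 1 when a sample was left out. Fibro cells gave 1, and 2 without the filter, with 1 to 2 when a sample was left out. The cause of these shifts was not tested, apart from filters that removed the gene.

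With the replicate block, label contrast calls over all genes were 56 in nmSC, 92 in mySC, 18 in EC, 331 in myeloid cells and 219 in lymphoid cells. The block kept Timp1 in mySC (adjusted p = 0.0265, edgeR) and Timp2 in myeloid cells (0.00176, edgeR) and lost Timp2 in lymphoid cells (0.638, edgeR). Of the collagen and matrix list it left 5 genes lower in nmSC. Same-numbered samples deviated with correlations from -0.065 to 0.099 over genes, so the numbers are not taken to pair them. No paired analysis was possible for the strain contrast because its samples share only number 1.

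Calls over all genes ranged, over the alternatives, in the label contrast from 3 to 348 in nmSC (82 in the reported fit), 50 to 403 in mySC (195), 7 to 37 in EC (14), 256 to 696 in myeloid (576) and 167 to 2524 in lymphoid cells (1743). In the strain contrast they ranged from 48 to 286 in nmSC (175), 55 to 247 in fibro (87), 9 to 79 in EC (41), 2 to 81 in myeloid (22) and 6 to 72 in lymphoid cells (42).

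Of 360 log2 fold changes of single genes under alternatives, 314 kept their direction and side of the threshold, 11 passed it newly, 7 no longer passed, and 28 changed sign. Of the 28, Timp2 and Timp3 in lymphoid cells without NOD control 2 had been called. For genes that changed sign, the values with each sample left out ranged in the label contrast from -0.50 to 0.28 for Timp3 in mySC, -0.17 to 0.29 for Timp3 in EC, -1.26 to 0.57 for Timp2 in lymphoid cells and -2.31 to 5.68 for Timp3 in lymphoid cells. In the strain contrast they ranged in nmSC from -0.17 to 2.80 for Adamts1, -0.78 to 0.18 for Adamts5, -0.999 to 0.27 for Timp1 and -0.13 to 0.45 for Timp3. In fibro cells they ranged from -0.54 to 0.42 for Mmp14, -0.80 to 0.45 for Adamts5 and -0.068 to 0.42 for Timp1, and in EC from -0.055 to 0.86 for Timp2 and -0.18 to 0.14 for Timp3. Without the filter, Timp3 in EC was at -0.18 (label) and -0.15 (strain), and Mmp14 in fibro cells at -0.030. With libraries 2-1 and 2-2 separate, Mmp14 in fibro cells was at -0.073 and Adamts5 in nmSC (strain) at 0.0079. With the batch term, Mmp14 in fibro cells was at -0.14. Mean levels by cell type were also taken with UMIs pooled, without doublets, with at least 50 cells per library and with each library left out. Of these, 1280 stayed within the SD between libraries and 152 did not or had no SD. Leaving out a library cannot move a mean by more than the SD, and types with 1 library have none. These counts therefore do not measure how stable the levels are.

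Few cells limit these results: NOD control 1 held 20 mySC and 49 lymphoid cells, and the labelled libraries held 20 fibro cells. Most genes had too few UMIs in leukocytes and endothelial cells to be tested, so absence from those comparisons does not show equal levels.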
